A study of Mus musculus with 4 samples.

Results

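Histone methylation and acetylation enzymes place and remove small chemical groups on histone tails and on some other proteins. The enzymes described here are the genes of the deposited table whose symbols begin with Kdm, Kmt, Setd, Setdb, Hdac, Sirt, Kat or Prmt followed by a digit. That rule took 75 of 53465 rows by name. It uses no measured value, but it was chosen with earlier results of these data known. Of these rows, 70 are enzyme genes, 4 are pseudogenes (Kat2b-ps, Kat6b-ps1, Kat6b-ps2 and Kdm4dl) and 1 is an antisense RNA (Kdm6bos).

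RNA was sequenced from whole testes of mice at postnatal day 18, on a mixed C57BL/6 and ICR background. The mutants were Sympk cKO mice, in which Stra8-Cre, a recombinase active in male germ cells, removes Sympk, and they were compared with wild-type mice. Sympk encodes symplekin, a scaffold of the machinery that cleaves and polyadenylates mRNA 3′ ends, and the study addresses its part in meiosis. There were 2 libraries of each genotype, and no label says that they came from separate animals, so the p-values reflect spread between libraries that may be technical.

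Acetyltransferases (Kat) and methyltransferases (Kmt, Setd, Setdb and Prmt) write marks on lysines or arginines, and deacetylases (Hdac, Sirt) and demethylases (Kdm) erase them. Acetylation and H3K4 methylation are typical of active genes, H3K9 and H3K27 methylation of silent ones. In the testis these marks are rebuilt as spermatogonia enter meiosis, when the sex chromosomes are silenced in spermatocytes, and again when spermatids replace histones with protamines.

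At this age the seminiferous tubules hold spermatogonia, first-wave spermatocytes and Sertoli cells. Levels are given as CPM, the counts of a gene in every 1000000 of its library. The 15 tested markers of pachytene spermatocytes all fell, with summed levels of 175 and 227 CPM in the cKO libraries, against 9099 and 8605 CPM in the wild-type libraries. Of 24 Sertoli cell markers, 20 were higher and 1 was lower, with summed levels of 8177 and 7320 CPM in the cKO libraries, against 3371 and 3636 CPM in the wild-type libraries. Of 19 spermatogonial markers 12 were higher and 4 lower, and they summed to 969 and 1040 CPM in the cKO libraries, against 1184 and 1323 CPM in the wild-type libraries. On the same scale 5 of 9 Leydig cell, 7 of 10 peritubular, 10 of 10 endothelial and 9 of 10 macrophage markers were higher, and 14 of 15 early meiotic and 9 of 10 spermatid markers were lower. With libraries scaled to the Sertoli list instead, at most 1 marker of each of these 4 somatic lists was called higher. In whole testis, fewer cells of a type and less RNA per cell cannot be told apart. The libraries held 32730868 to 41584389 counts, and mitochondrially encoded genes took 10.2% and 8.81% of them in the cKO libraries, against 4.93% and 4.01% in the wild-type libraries. Sympk itself had 172 and 173 CPM in the cKO libraries, against 225 and 192 CPM in the wild-type libraries, a difference that did not pass the test (log2 fold change -0.28, SE 0.14, edgeR adjusted p = 0.132). Its gene-level count includes exons that a deletion may spare and cells in which the Cre is not active.

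All CPM are scaled by TMM factors. Changes are log2 fold changes, cKO over wild type, each with its SE, an approximate standard error. The SE is the absolute log2 fold change divided by the square root of the F statistic of edgeR's test. It thus restates that test and is no separate measure of spread. A gene is said to have risen or fallen where edgeR's quasi-likelihood test gave a Benjamini-Hochberg adjusted p under 0.05 over all 21822 genes tested. By that rule 63.4% of all genes tested changed, 29.2% higher and 34.3% lower in cKO. Among the 69 enzymes tested, 44 changed (63.8%), 25 of them higher (36.2%) and 19 lower (27.5%), with a median log2 fold change of 0.08 against -0.02 over all genes tested. The share of enzymes that changed was thus close to that of all genes. All cKO libraries lay above all wild-type libraries in 32 of the 75 rows and below them in 25, and the genotypes overlapped in 18. Lack of overlap was thus common among these rows, and its share over all genes is not given here. Where it is stated for a gene, it is a description and adds no support to the test. The balance of higher and lower calls rests on the scaling: with libraries scaled to the summed counts of the Sertoli marker list, edgeR called 0 enzymes higher and 47 lower (1 higher at an unadjusted p under 0.05), and the median of all genes was -1.16.

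The classes differed in their counts. Deacetylases of the Hdac classes had 8 higher and 2 lower of 11 tested, lysine demethylases 8 and 5 of 18, acetyltransferases 3 and 3 of 8, lysine methyltransferases 5 and 4 of 18, arginine methyltransferases 1 and 2 of 7, and sirtuins 0 and 3 of 7. Their median log2 fold changes were 1.05, 0.27, -0.00080, 0.00096, -0.0022 and -0.36 in that order. Scaled to library totals alone, the lysine methyltransferases had 7 higher and 3 lower, the arginine methyltransferases 2 and 2, and the sirtuins 2 and 2. Prmt8, a neuronal arginine methyltransferase, was not tested, with 8 and 10 counts in the cKO libraries and 7 and 0 counts in the wild-type libraries. The pseudogenes Kat6b-ps1 and Kat6b-ps2 were not tested either, with 0 counts in every cKO library and 0 to 3 counts in the wild-type libraries.

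**Figure D1:**
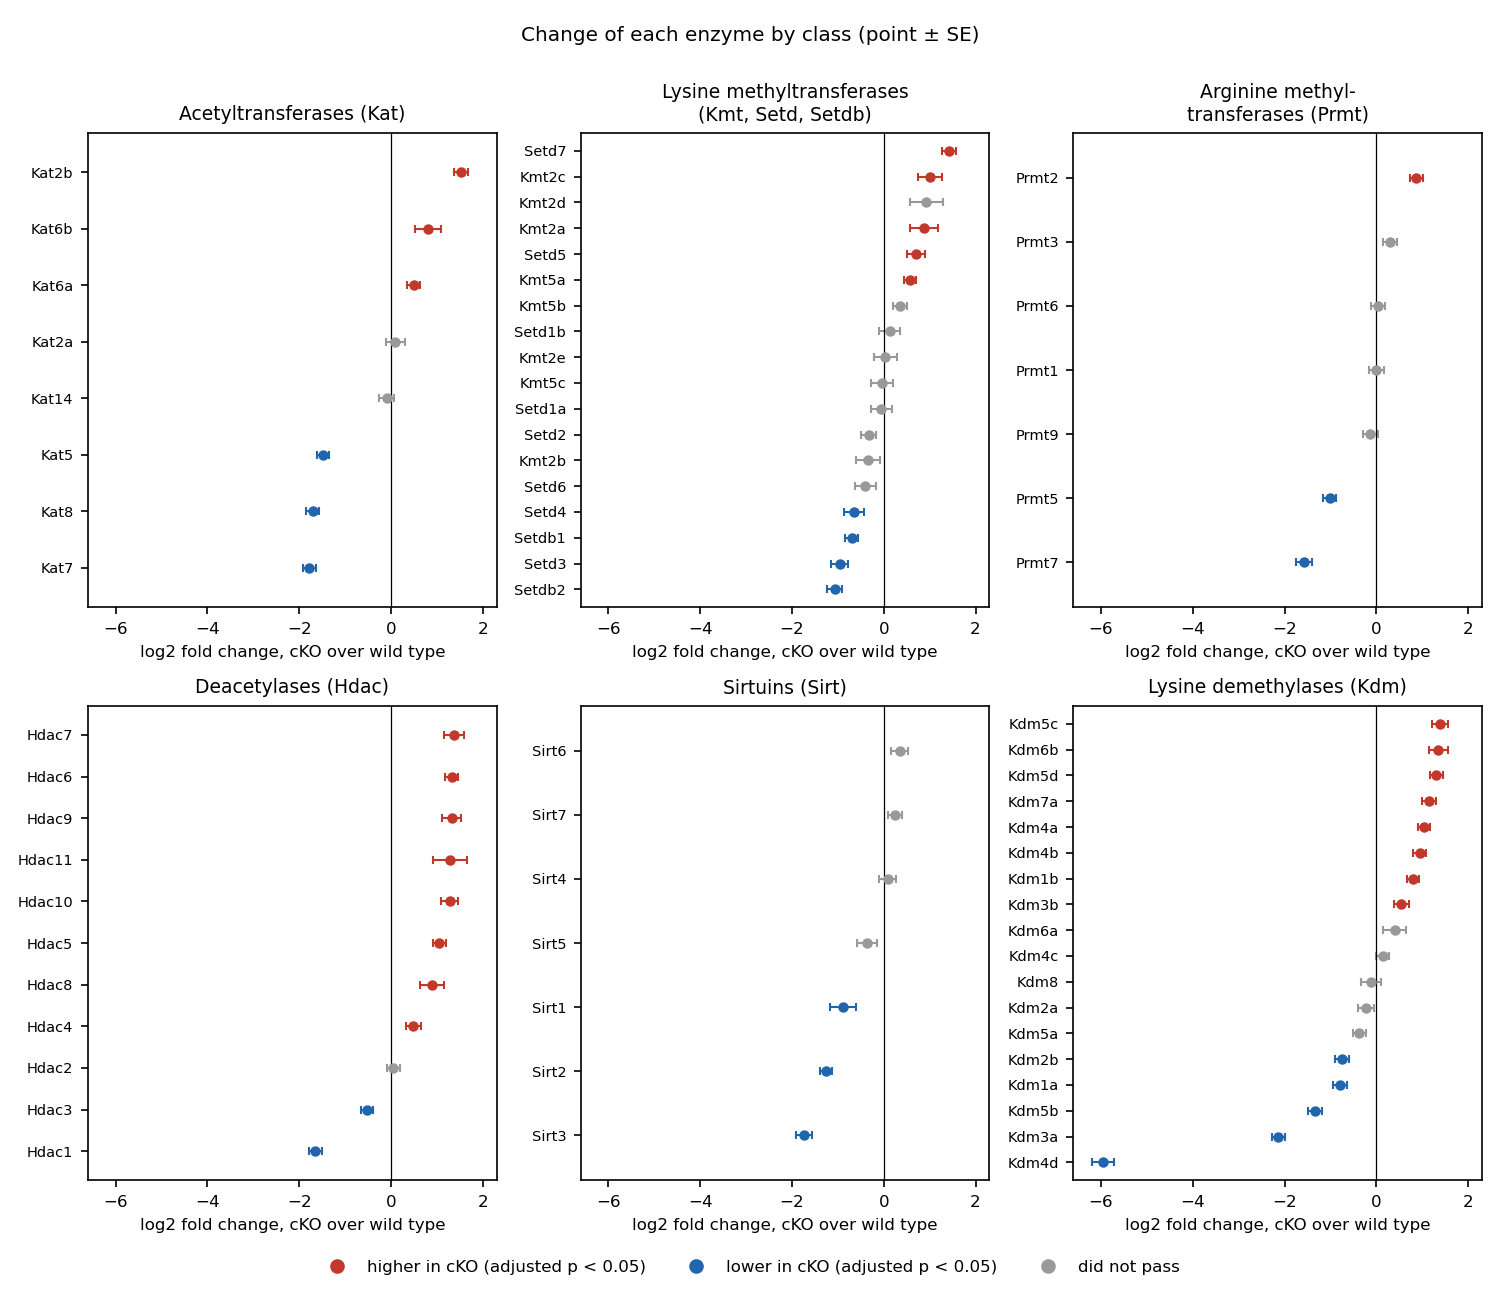
Log2 fold change of cKO over wild type (x axis) for the 69 tested enzymes (y axis), 1 panel per class; points are edgeR estimates from 2 libraries per genotype, bars are ± 1 SE, red is higher, blue lower and grey did not pass. Hdac enzymes lie mostly to the right, Kdm4d stands alone at -5.96, and no sirtuin lies to the right among those that passed; on the Sertoli list scale no enzyme passed to the right.

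The lysine demethylases held the largest falls of the 6 classes, and 8 of them rose. Kdm4d, which removes methyl groups from H3K9 and is a testis-rich member of the Kdm4 family in mouse, had 1.40 and 2.08 CPM in the cKO libraries, against 112 and 104 CPM in the wild-type libraries (log2 fold change -5.96, SE 0.24, edgeR adjusted p = 1.53e-05). That is a 62.3-fold lower level, with no overlap between the genotypes. Kdm3a, an H3K9 demethylase known in mouse for activating protamine and transition protein genes in spermatids, had 88.3 and 92.6 CPM in the cKO libraries, against 383 and 412 CPM in the wild-type libraries (log2 fold change -2.14, SE 0.14, edgeR adjusted p = 6.78e-05). Kdm5b, an H3K4 demethylase, had 342 and 307 CPM in the cKO libraries, against 838 and 800.2 CPM in the wild-type libraries (log2 fold change -1.33, SE 0.15, edgeR adjusted p = 0.000589). Both fell, by 4.40-fold and 2.52-fold. The flavin-dependent demethylase Kdm1a (log2 fold change -0.80) and Kdm2b, which recruits a Polycomb complex to CpG islands (log2 fold change -0.75), fell less. Kdm2b did not pass without cKO replicate 1 (log2 fold change -0.61).

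Kdm4d (ENSMUSG00000053914, chromosome 9, 14462548 to 14500482, minus strand) and Kdm3a (ENSMUSG00000053470, chromosome 6, 71588972 to 71632990, minus strand) are the enzymes that fell most. Kdm5c (ENSMUSG00000025332, chromosome X, 152233020 to 152274535, plus strand) and Hdac6 (ENSMUSG00000031161, chromosome X, 7930120 to 7947889, minus strand) are X-linked enzymes that rose. Their promoter sequences show which common promoter elements sit near the starts of genes that moved in opposite directions. Each is the stretch of 250 bases before the most upstream RefSeq transcription start, 5′ to 3′ on the gene's own strand, in build GRCm38.p6. The positions are chr9:14500483-14500732 (minus strand), chr6:71632918-71633167 (minus strand), chrX:152232977-152233226 (plus strand) and chrX:7947890-7948139 (minus strand). The windows of Kdm3a and Kdm5c overlap the gene coordinates given above, which start further upstream than the RefSeq start. Some of their marked letters may thus lie within the gene. Capitals mark a CCAAT box (CCAAT), a GC box (GGGCGG) or a MYB core (AACTG or AACGG), on either strand.
Kdm4d: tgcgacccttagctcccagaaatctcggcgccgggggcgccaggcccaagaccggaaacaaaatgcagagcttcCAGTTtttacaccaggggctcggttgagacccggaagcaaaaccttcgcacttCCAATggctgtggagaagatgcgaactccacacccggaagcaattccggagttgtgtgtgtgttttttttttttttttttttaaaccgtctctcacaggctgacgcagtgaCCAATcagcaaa
Kdm3a: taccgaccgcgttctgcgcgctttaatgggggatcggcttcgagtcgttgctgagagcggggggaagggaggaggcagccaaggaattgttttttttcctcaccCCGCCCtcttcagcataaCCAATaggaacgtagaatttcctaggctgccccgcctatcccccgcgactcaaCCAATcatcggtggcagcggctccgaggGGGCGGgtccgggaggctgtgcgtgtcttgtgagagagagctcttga
Kdm5c: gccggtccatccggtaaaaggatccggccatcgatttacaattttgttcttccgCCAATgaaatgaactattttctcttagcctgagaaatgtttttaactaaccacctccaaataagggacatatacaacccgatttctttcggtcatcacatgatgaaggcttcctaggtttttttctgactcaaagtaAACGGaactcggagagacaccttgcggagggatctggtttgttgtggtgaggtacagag
Hdac6: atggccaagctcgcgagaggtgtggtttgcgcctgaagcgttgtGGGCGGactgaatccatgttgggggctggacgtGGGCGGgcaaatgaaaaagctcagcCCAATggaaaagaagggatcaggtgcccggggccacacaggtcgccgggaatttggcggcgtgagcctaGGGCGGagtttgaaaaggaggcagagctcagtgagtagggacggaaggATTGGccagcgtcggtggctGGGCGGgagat

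The Kdm4d promoter held 2 CCAAT boxes and 1 MYB core, that of Kdm3a 2 CCAAT and 2 GC boxes, that of Kdm5c 1 CCAAT box and 1 MYB core, and that of Hdac6 2 CCAAT and 4 GC boxes. None of the 4 had a TATA box (TATAAA) or the full cAMP response element (TGACGTCA). RefSeq promoters were matched for 58 enzymes. A CCAAT box was found in 70.6% of the 17 matched enzymes that fell and in 50% of the 20 that rose. Among all 27025 genes with a RefSeq promoter, tested here or not, 34.5% had one. A GC box was found in 52.9%, 55% and 33% of the same sets, and a MYB core in 64.7%, 45% and 48.8%. A TATA box was found in 0 of the 17 that fell and in 4 of the 20 that rose, against 13% of all promoters. The median number of CpG sites in the window was 20 in those that fell, 15 in those that rose and 6 over all promoters. Over all 58 matched enzymes, 46.6% had a CCAAT box, 56.9% a GC box, 53.4% a MYB core and 6.9% a TATA box. Their median number of CpG sites was 14.5. A match describes these letters only.

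Of the demethylases that rose, Kdm5c, the X-linked H3K4 demethylase, had 192 and 145 CPM in the cKO libraries, against 67.2 and 61.99 CPM in the wild-type libraries (log2 fold change 1.39, SE 0.17, edgeR adjusted p = 0.000936). Its Y-linked counterpart Kdm5d had 51.7 and 55.1 CPM in the cKO libraries, against 22.6 and 20.6 CPM in the wild-type libraries (log2 fold change 1.31, SE 0.15, edgeR adjusted p = 0.000585). Kdm6b, which removes H3K27 methylation, had 211 and 226 CPM in the cKO libraries, against 102 and 68.7 CPM in the wild-type libraries (log2 fold change 1.35, SE 0.21, edgeR adjusted p = 0.00211). In all of these the lowest cKO library was above the highest wild-type library. Kdm7a, which acts on H3K9 and H3K27, had 554 and 473 CPM in the cKO libraries, against 237 and 226 CPM in the wild-type libraries (log2 fold change 1.15, SE 0.15, edgeR adjusted p = 0.00109). Kdm4a (log2 fold change 1.04), Kdm4b (0.94), Kdm1b (0.80) and Kdm3b (0.55) also rose, all on the TMM scale, and on the Sertoli list scale none of the 8 was called higher. Kdm3b did not pass without either cKO library (log2 fold changes 0.54 and 0.57). Kdm5a had 175 and 179 CPM in cKO, against 243 and 215 CPM in wild type, without overlap, yet did not pass (log2 fold change -0.37, edgeR adjusted p = 0.0522), and it passed without wild-type replicate 2 (log2 fold change -0.47) and by DESeq2, limma-voom or RLE factors. Kdm2a (log2 fold change -0.22), Kdm8 (-0.12), Kdm4c (0.14) and the X-linked H3K27 demethylase Kdm6a (0.40) did not pass. Kdm2a passed, lower in cKO, without wild-type replicate 2 (log2 fold change -0.44).

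On the TMM scale, though not on the Sertoli list scale, close relatives with the same substrate changed in opposite directions, and the makeup of their families differed between the genotypes. Such shares compare genes within a library and do not depend on how libraries are scaled. Of the summed Kdm4 level, in CPM per kilobase of merged exons (CPM per kb), Kdm4d made up 0.912% and 1.45% in the cKO libraries, against 56.2% and 55.9% in the wild-type libraries. Kdm4b made up 48.8% and 49.4% in the cKO libraries, against 20.7% and 18.6% in the wild-type libraries. In the Kdm5 family, Kdm5b made up 32.6% and 33.6% in the cKO libraries, against 64.3% and 65.7% in the wild-type libraries, and Kdm5c 42.6% and 36.95% in the cKO libraries, against 12.01% and 11.8% in the wild-type libraries. The ratio of Kdm5b to Kdm5c was 0.764 and 0.909 in the cKO libraries, against 5.36 and 5.54 in the wild-type libraries. Of the Kdm3 pair, Kdm3a made up 41.7% and 43.3% in the cKO libraries, against 80.5% and 84.7% in the wild-type libraries. The ratio of Kdm1a to Kdm1b was 1.55 and 1.47 in the cKO libraries, against 4.10 and 5.09 in the wild-type libraries. Ratios were computed for 12 such pairs of relatives over all the classes. Where the genotypes did not overlap, the two-sided exact permutation p = 0.333 is the smallest that 2 libraries against 2 allow, so these ratios are descriptions.

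**Figure D2:**
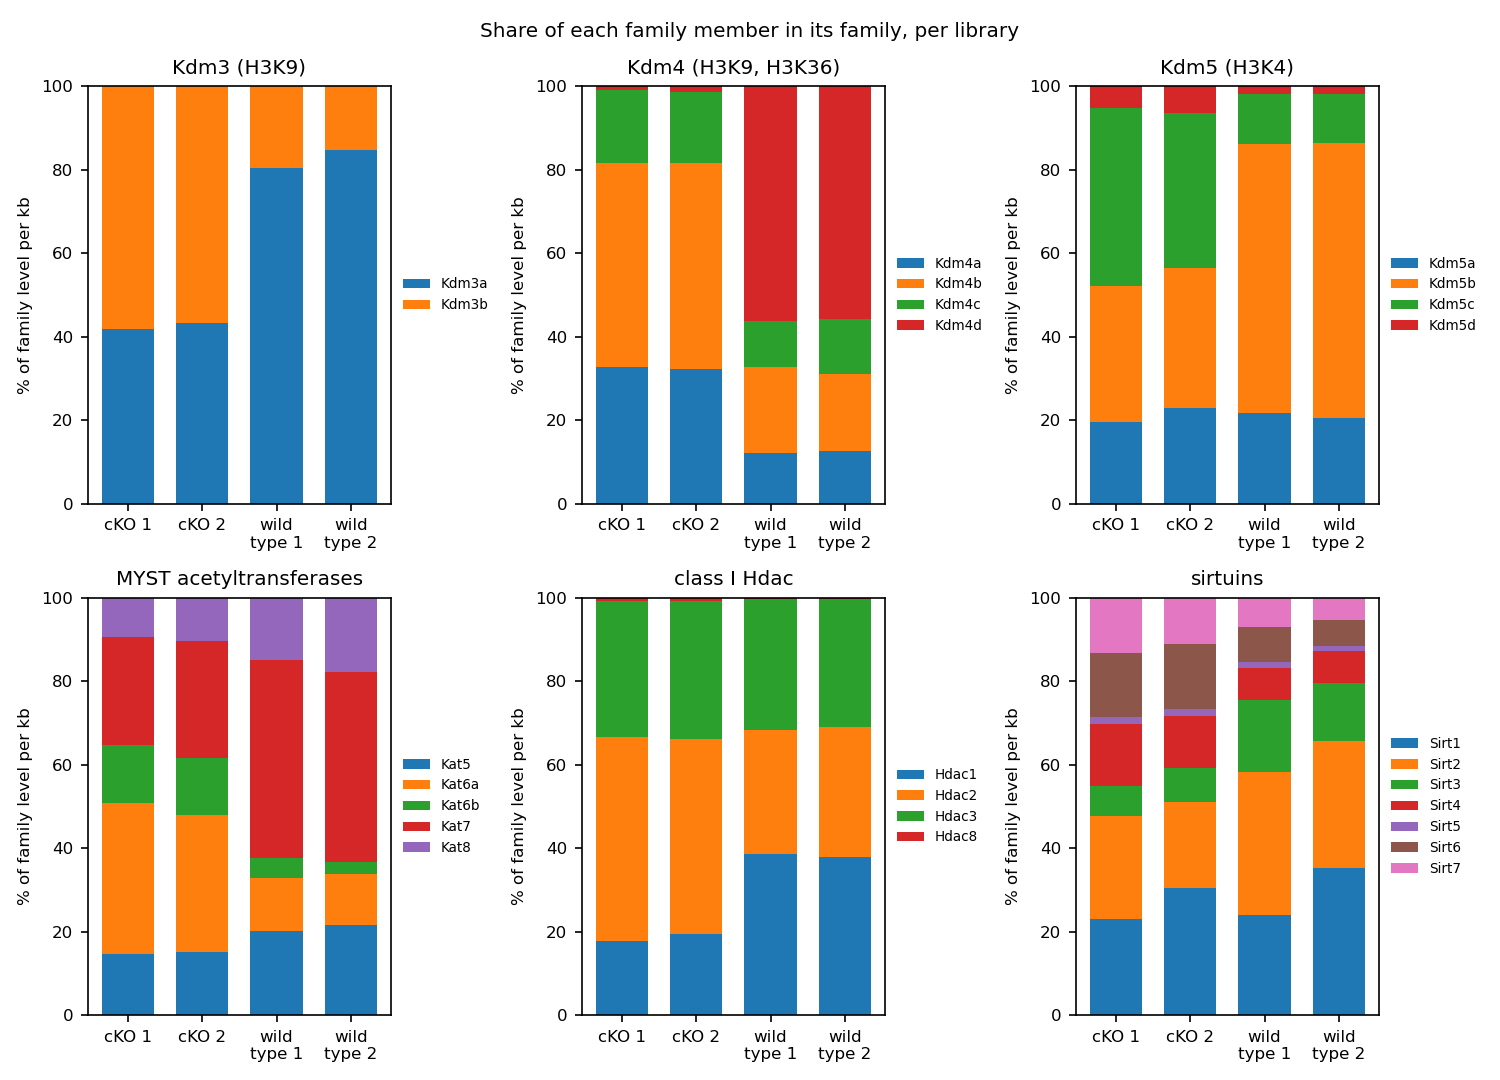
Share of each member in the summed level of its family (y axis, % of CPM per kb of merged exons) in each of the 4 libraries (x axis), for 6 families. The Kdm4d share was under 1.5% in both cKO libraries and over 55% in both wild-type libraries, and Kdm3a, Kdm5b, Hdac1 and Kat7 shares were likewise lower in both cKO libraries.

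The pseudogene Kdm4dl, next to Kdm4d on chromosome 9, had 0.934 and 0.548 CPM in cKO, against 9.70 and 5.88 CPM in wild type (log2 fold change -3.38, SE 0.39, edgeR adjusted p = 0.000709), and reads may have been shared between gene and pseudogene in the counting. Kdm6bos, on the strand opposite to Kdm6b, had 0.140 and 0.0548 CPM in cKO, against 0.898 and 0.872 CPM in wild type (log2 fold change -3.10, SE 0.52, edgeR adjusted p = 0.00280), the opposite direction to Kdm6b. Strand handling in the counting is not given in the sources used here, and 286 exonic bases are shared by the pair, so their reads cannot be told apart there.

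Among lysine methyltransferases, 9 of 18 did not pass the test, and both H3K9 enzymes of the Setdb group fell. Setdb1, which trimethylates H3K9 and silences transposable elements, had 140.3 and 143 CPM in the cKO libraries, against 251 and 210.4 CPM in the wild-type libraries (log2 fold change -0.70, SE 0.15, edgeR adjusted p = 0.00647). Setdb2 had 19.7 and 23.2 CPM in the cKO libraries, against 42.7 and 47.2 CPM in the wild-type libraries (log2 fold change -1.07, SE 0.16, edgeR adjusted p = 0.00181). Setd3, known as the histidine methyltransferase of actin, had 175 and 127 CPM in the cKO libraries, against 299.95 and 287 CPM in the wild-type libraries (log2 fold change -0.96, SE 0.18, edgeR adjusted p = 0.00473). The wild-type libraries were the higher ones in each, with no overlap. Setd4 had 4.49 and 4.79 CPM in cKO, against 6.66 and 7.88 CPM in wild type (log2 fold change -0.65, SE 0.21, edgeR adjusted p = 0.0358), and it did not pass without either cKO library or without wild-type replicate 2 (log2 fold changes -0.60, -0.69 and -0.54), nor with library totals alone (-0.43).

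Of the 18, Setd7, Setd5, Kmt5a, Kmt2a and Kmt2c rose on the TMM scale, and none of these 5 was called higher on the Sertoli list scale. Setd7, which monomethylates H3K4 and several non-histone proteins, had 74.01 and 70.3 CPM in the cKO libraries, against 29.8 and 24.1 CPM in the wild-type libraries (log2 fold change 1.42, SE 0.16, edgeR adjusted p = 0.000618). Setd5 had 412 and 310.02 CPM in cKO, against 245 and 196 CPM in wild type (log2 fold change 0.71, SE 0.20, edgeR adjusted p = 0.0200). It did not pass without cKO replicate 1 (log2 fold change 0.49) or without wild-type replicate 2 (0.54). Kmt5a, which monomethylates H4K20, rose (log2 fold change 0.57), though not past the threshold without cKO replicate 2 (0.56), and the later H4K20 enzymes Kmt5b (log2 fold change 0.35) and Kmt5c (-0.04) did not pass. Setd2, which trimethylates H3K36, had 229.9 and 220.00 CPM in cKO, against 315 and 248 CPM in wild type and did not pass (log2 fold change -0.32, edgeR adjusted p = 0.125), and it passed, lower in cKO, without wild-type replicate 2 (-0.51). Setd6 (log2 fold change -0.40) did not pass either.

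Of the 6 large H3K4 methyltransferases of the Kmt2 and Setd1 group, 2 rose on the TMM scale, though not on the Sertoli list scale, and 4 did not pass, and the wild-type libraries differed from each other in them. Kmt2c, which with Kmt2d monomethylates H3K4 at enhancers, had 299.8 and 319 CPM in the cKO libraries, against 194 and 113 CPM in the wild-type libraries (log2 fold change 1.01, SE 0.26, edgeR adjusted p = 0.0146). Kmt2a had 108 and 129.99 CPM in the cKO libraries, against 85.96 and 44.2 CPM in the wild-type libraries (log2 fold change 0.87, SE 0.31, edgeR adjusted p = 0.0468). Kmt2d had 449.8 and 509 CPM in the cKO libraries, against 350.5 and 154 CPM in the wild-type libraries. It did not pass (log2 fold change 0.93, SE 0.36, edgeR adjusted p = 0.0644), though it passed by DESeq2, limma-voom or library totals alone. The cKO libraries were above both wild-type libraries in these genes, but wild-type replicate 1 was 2.27-fold above replicate 2 for Kmt2d, 1.95-fold for Kmt2a and 1.72-fold for Kmt2c. Without wild-type replicate 1 the log2 fold changes were 1.63 for Kmt2d, which then passed, 1.42 for Kmt2a and 1.45 for Kmt2c. Without wild-type replicate 2 they were 0.43 for Kmt2d, 0.45 for Kmt2a, which then did not pass, and 0.66 for Kmt2c. Kmt2a did not pass without cKO replicate 2 (0.74), with RLE factors (0.83) or with a filter at a mean of 5 CPM (0.91) either. Kmt2b (log2 fold change -0.34), Setd1a (-0.05), Setd1b (0.13) and the related Kmt2e (0.04) did not pass. Setd1b (0.49) and Kmt2e (0.45) passed, higher in cKO, without wild-type replicate 1, and Kmt2b (-0.70) passed, lower in cKO, without wild-type replicate 2. The class had 5 enzymes higher with all libraries, 8 without wild-type replicate 1, and 3 without wild-type replicate 2 or without cKO replicate 2.

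The difference between the wild-type libraries went with exon length. For the 19 enzymes with at least 10000 bases of merged exons, the median log2 ratio of wild-type replicate 1 over replicate 2 was 0.32, against -0.10 for the 23 under 5000 bases. Over all 1347 genes of at least 10000 bases with a mean of at least 100 counts the same median was 0.25. Between the cKO replicates the median for the 19 long enzymes was 0.02. The change between genotypes also went with length. The median log2 fold change of cKO over wild type was 0.55 for the 19 long enzymes and -0.0022 for the 23 short ones. Over all genes with a mean of at least 100 counts the medians of the same length groups were 0.26 and -0.13. The part of the wild-type replicate difference in the changes of long enzymes, methyltransferases or others, was not tested beyond leaving out each library. Setd1a shares 51.8% of its exonic bases with Gm49388 on the same strand, so its count is uncertain.

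**Figure D3:**
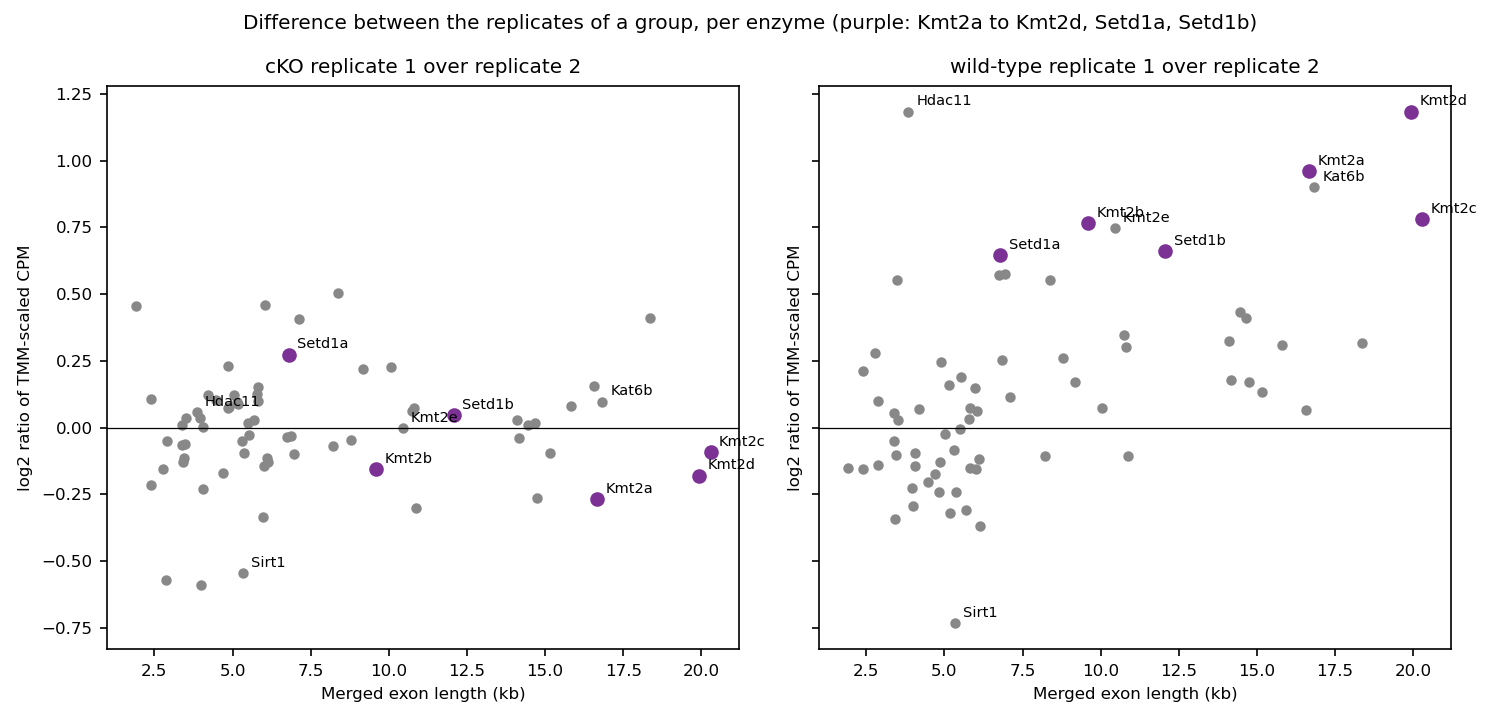
Log2 ratio of replicate 1 over replicate 2 (y axis, from TMM-scaled CPM) against merged exon length in kilobases (x axis) for the 69 tested enzymes, in the cKO libraries (left) and the wild-type libraries (right); purple points are the Kmt2 and Setd1 enzymes. The median of the 19 enzymes of at least 10000 bases was 0.02 in cKO and 0.32 in wild type, where Kmt2d lies at 1.18.

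Among arginine methyltransferases, Prmt5 and Prmt7 fell and Prmt2 rose. Prmt5, the main source of symmetric dimethylarginine, had 70.6 and 68.95 CPM in the cKO libraries, against 131 and 153 CPM in the wild-type libraries (log2 fold change -1.02, SE 0.14, edgeR adjusted p = 0.00131). Prmt7, which makes monomethylarginine, had 38.2 and 41.9 CPM in the cKO libraries, against 104 and 135 CPM in the wild-type libraries (log2 fold change -1.58, SE 0.17, edgeR adjusted p = 0.000530). Prmt2 had 35.5 and 35.3 CPM in the cKO libraries, against 19.1 and 19.8 CPM in the wild-type libraries (log2 fold change 0.86, SE 0.14, edgeR adjusted p = 0.00272), a rise on the TMM scale that was -0.28 and did not pass on the Sertoli list scale. None of the 3 genes had overlapping groups, a description that adds no support to their tests. Prmt1, the main asymmetric arginine methyltransferase, had 52.7 and 57.5 CPM in cKO, against 48.7 and 61.7 CPM in wild type (log2 fold change -0.0022). Prmt3 (log2 fold change 0.30), Prmt6 (0.03) and Prmt9 (-0.13) did not pass.

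Of 8 acetyltransferases, 3 fell and 3 rose. All 5 enzymes of the MYST family changed, 3 lower and, on the TMM scale but not the Sertoli list scale, 2 higher. Kat7, also called HBO1, which acetylates H3K14 and H4, had 103 and 104 CPM in the cKO libraries, against 379 and 333 CPM in the wild-type libraries (log2 fold change -1.78, SE 0.14, edgeR adjusted p = 0.000161). Kat8, also called MOF, which acetylates H4K16, had 19.6 and 20.3 CPM in the cKO libraries, against 62.02 and 68.3 CPM in the wild-type libraries (log2 fold change -1.71, SE 0.14, edgeR adjusted p = 0.000199). Kat5, also called TIP60, the enzyme of the NuA4 complex, had 36.6 and 35.7 CPM in the cKO libraries, against 102 and 101 CPM in the wild-type libraries (log2 fold change -1.49, SE 0.13, edgeR adjusted p = 0.000224). These 3 fell without overlap, by 3.44-fold, 3.26-fold and 2.81-fold. Kat6a and Kat6b, related catalytic subunits of BRPF1 complexes that acetylate H3K23, rose on the TMM scale. On the Sertoli list scale their log2 fold changes were -0.66 and -0.35, and Kat6a was called lower there (edgeR adjusted p = 0.0106). Kat6a had 237 and 204 CPM in cKO, against 166 and 148 CPM in wild type (log2 fold change 0.49, SE 0.15, edgeR adjusted p = 0.0271). Kat6b had 166 and 156 CPM in cKO, against 119 and 63.9 CPM in wild type (log2 fold change 0.81, SE 0.28, edgeR adjusted p = 0.0450). The rise of Kat6a did not pass without either cKO library or without wild-type replicate 2 (0.38, 0.60 and 0.39), and that of Kat6b did not pass without either cKO library (0.77 and 0.87) and was 1.33 and 0.41 without wild-type replicates 1 and 2. Kat6b did not pass with RLE factors or with a filter at a mean of 5 CPM either (0.77 and 0.85).

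The ratio of Kat7 to Kat6a was 0.716 and 0.849 in the cKO libraries, against 3.78 and 3.73 in the wild-type libraries, without overlap. Of the summed MYST level, Kat7 made up 25.9% and 27.9% in the cKO libraries, against 47.4% and 45.4% in the wild-type libraries. Kat6a made up 36.2% and 32.9% in the cKO libraries, against 12.6% and 12.2% in the wild-type libraries. These MYST shares are uncertain in size, since they take 3509 bases for Kat5, while the deposited length-scaled values imply 2008 bases. Of the GNAT family, Kat2b, also called PCAF, had 149 and 127 CPM in the cKO libraries, against 46.01 and 50.3 CPM in the wild-type libraries (log2 fold change 1.52, SE 0.15, edgeR adjusted p = 0.000357). It rose 2.87-fold on the TMM scale, and on the Sertoli list scale its log2 fold change of 0.37 did not pass. Its close relative Kat2a, also called GCN5, had 82.9 and 86.5 CPM in cKO, against 94.2 and 64.2 CPM in wild type, with overlap (log2 fold change 0.10, edgeR adjusted p = 0.694), and it passed, higher in cKO, without wild-type replicate 1 (0.39). The ratio of Kat2b to Kat2a was 1.29 and 1.05 in the cKO libraries, against 0.349 and 0.560 in the wild-type libraries. The pseudogene Kat2b-ps, whose reads may be shared with Kat2b, had 1.19 and 1.01 CPM in cKO, against 0.344 and 0.197 CPM in wild type (log2 fold change 2.01). Kat14, a subunit of the ATAC complex, had 27.8 and 31.3 CPM in cKO, against 29.8 and 33.5 CPM in wild type and did not pass. It shares 693 exonic bases on the same strand with Pet117, which had 476 and 343 counts in the cKO libraries and 1 and 1 in the wild-type libraries, so the value of Kat14 is uncertain.

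**Figure D4:**
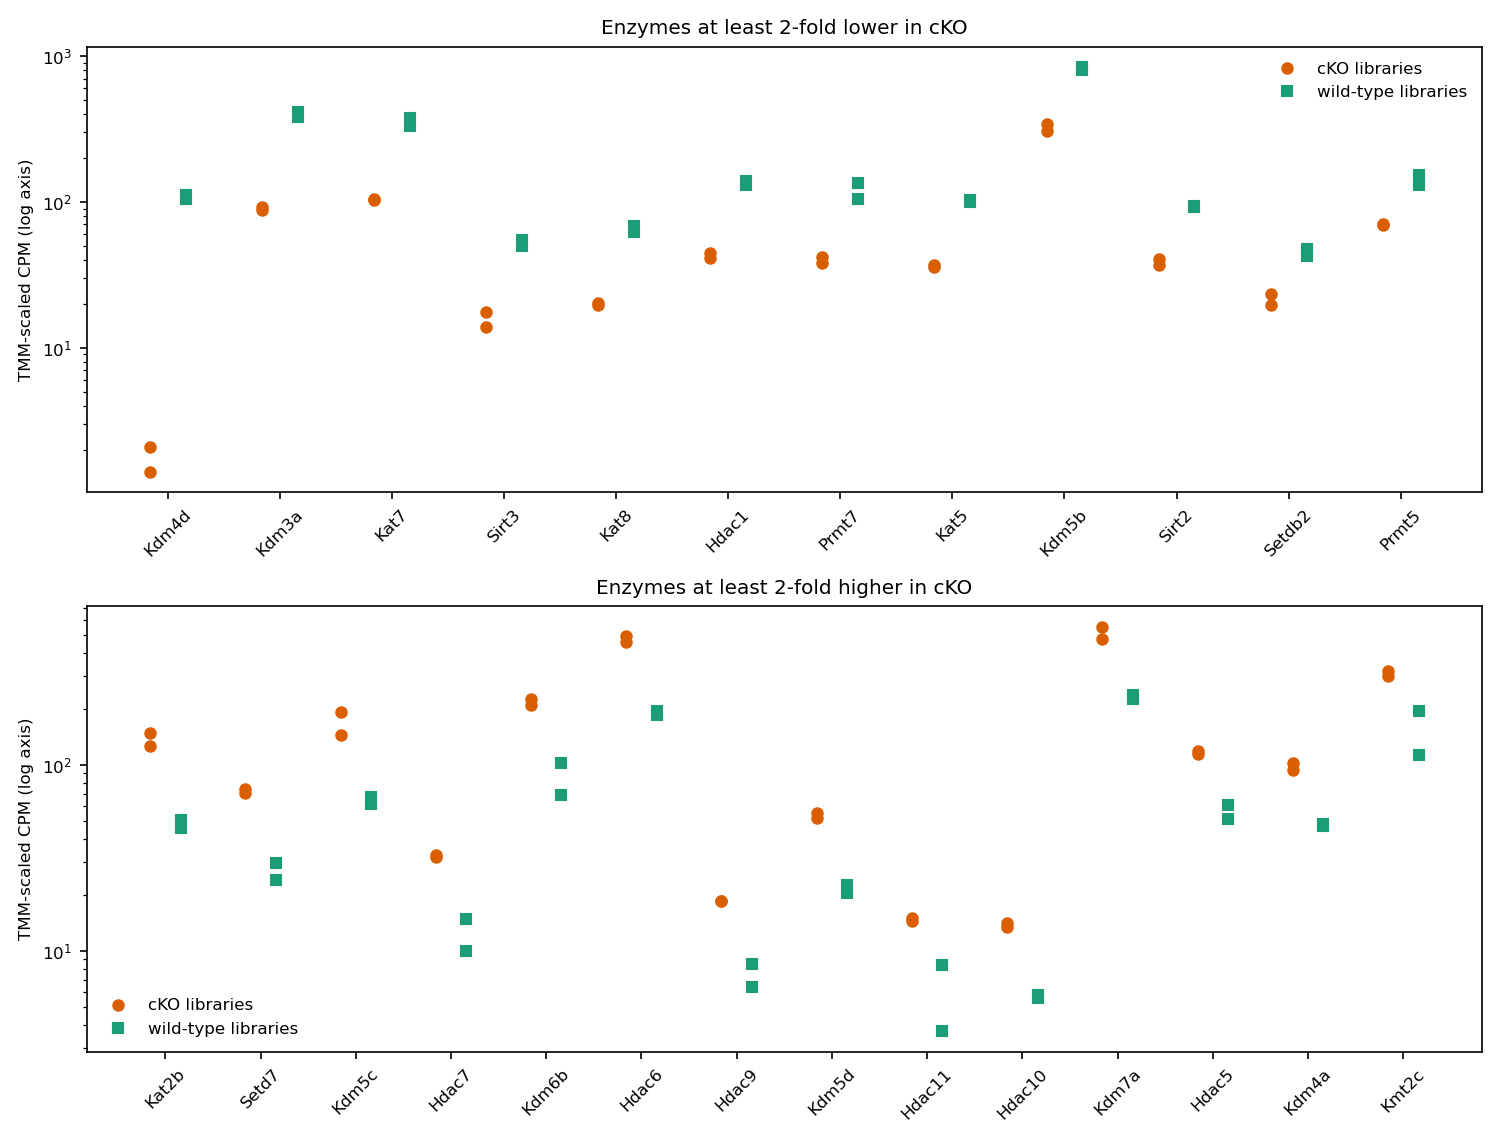
TMM-scaled CPM (y axis, log scale) in each library for the enzymes (x axis) that were at least 2-fold lower (top) or at least 2-fold higher (bottom) in cKO among those that passed; circles are the 2 cKO libraries and squares the 2 wild-type libraries. The enzymes were chosen by the test and fold change in these same libraries, so the lack of overlap between the genotypes adds no support. Kdm4d is separated most. On the Sertoli list scale those of the bottom panel did not pass as higher.

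The Hdac deacetylases had the highest share of rises of any class, with 8 of 11 (72.7%, against 29.2% of all genes tested) on the TMM scale and, by the same edgeR test, 0 of 11 on the Sertoli list scale (0 also at an unadjusted p under 0.05). All 4 class IIa enzymes, which bind MEF2 factors and shuttle between nucleus and cytoplasm, were among those that rose on the TMM scale. Hdac7 had 32.01 and 32.8 CPM in the cKO libraries, against 14.9 and 10.02 CPM in the wild-type libraries (log2 fold change 1.38, SE 0.22, edgeR adjusted p = 0.00239). Hdac9 had 18.6 and 18.4 CPM in the cKO libraries, against 8.48 and 6.39 CPM in the wild-type libraries (log2 fold change 1.32, SE 0.20, edgeR adjusted p = 0.00204). Hdac5 (log2 fold change 1.05) and Hdac4 (0.48) followed. Hdac4 did not pass without either cKO library or without wild-type replicate 2 (0.45, 0.53 and 0.32), nor with RLE factors or no filter on low counts. Both class IIb enzymes also rose on the TMM scale. Hdac6, a cytoplasmic tubulin deacetylase encoded on the X chromosome, had 491 and 459 CPM in the cKO libraries, against 195 and 185 CPM in the wild-type libraries (log2 fold change 1.32, SE 0.14, edgeR adjusted p = 0.000460). Hdac10, known as a polyamine deacetylase, rose too (log2 fold change 1.28). The ratio of Hdac6 to Hdac10 was 21.1 and 18.9 in the cKO libraries, against 19.4 and 19.2 in the wild-type libraries, which overlapped, with a two-sided exact permutation p = 1. The class IV enzyme Hdac11 had 15.1 and 14.5 CPM in cKO, against 8.38 and 3.69 CPM in wild type (log2 fold change 1.29, SE 0.37, edgeR adjusted p = 0.0237), with a 2.27-fold difference between the wild-type replicates, and was 1.99 and 0.80 without wild-type replicates 1 and 2.

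Of the 4 class I enzymes, which are mostly nuclear, Hdac1 and Hdac3 fell, Hdac8 rose on the TMM scale and Hdac2 did not pass. Hdac1, a catalytic subunit of the Sin3, NuRD and CoREST corepressor complexes, had 41.3 and 44.7 CPM in the cKO libraries, against 129.8 and 139 CPM in the wild-type libraries (log2 fold change -1.65, SE 0.13, edgeR adjusted p = 0.000177). Its level in cKO was 3.13-fold lower, with no overlap. Hdac2, which takes the same place in the same complexes, had 149 and 139 CPM in the cKO libraries, against 129 and 149 CPM in the wild-type libraries, with overlap (log2 fold change 0.05, edgeR adjusted p = 0.765). The ratio of Hdac1 to Hdac2 was 0.360 and 0.419 in the cKO libraries, against 1.31 and 1.22 in the wild-type libraries. Hdac3, the enzyme of the NCoR complex, had 89.6 and 89.4 CPM in cKO, against 125 and 133 CPM in wild type (log2 fold change -0.53, SE 0.13, edgeR adjusted p = 0.0113), and did not pass without either cKO library (-0.53 and -0.52) or with library totals alone. Hdac8, a deacetylase of cohesin encoded on the X chromosome, had 2.97 and 2.82 CPM in cKO, against 1.43 and 1.69 CPM in wild type (log2 fold change 0.89, SE 0.26, edgeR adjusted p = 0.0253), and did not pass without cKO replicate 1 (0.86), cKO replicate 2 (0.94) or wild-type replicate 1 (0.77). The summed class I level was 68.0 and 66.6 CPM per kb in the cKO libraries, against 97.6 and 107 CPM per kb in the wild-type libraries.

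On the TMM scale the class IIa, IIb and IV deacetylases rose, and so did Kat2b, Setd7, Kdm5c and Kdm6b. Sertoli cell markers had a median log2 fold change of 1.31 there. The medians were 0.97 for Leydig, 1.06 for peritubular, 0.97 for endothelial, 1.27 for macrophage and 0.95 for spermatogonial markers. No 1 of these lists is singled out. The meiotic markers fell, as did Hdac1, Kat7, Kat8, Kat5, Kdm4d and Kdm3a. The part of cell composition in these changes was not tested. The Sertoli list scaling is no such test, since it lowers the log2 fold changes of all genes by nearly the same amount (their median was -1.16, against -0.02 with TMM). On that scale the 19 enzymes that fell had log2 fold changes of -7.10 to -1.67, and the 25 that rose had -0.67 to 0.37. Of those 25, 4 were called lower there (Hdac4, Kat6a, Kdm3b and Kmt5a).

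Of 7 sirtuins 3 fell and, on the TMM scale, edgeR called 0 higher (0 also at an unadjusted p under 0.05, and 0 by DESeq2 and limma-voom). Those that fell work in different compartments of the cell. Sirt3, the main deacetylase of mitochondria, had 13.9 and 17.6 CPM in the cKO libraries, against 55.04 and 49.7 CPM in the wild-type libraries (log2 fold change -1.74, SE 0.18, edgeR adjusted p = 0.000429). Sirt2, a mostly cytoplasmic tubulin deacetylase, had 40.5 and 37.2 CPM in the cKO libraries, against 91.5 and 93.2 CPM in the wild-type libraries (log2 fold change -1.25, SE 0.13, edgeR adjusted p = 0.000492). Neither overlapped between the genotypes, and in the same libraries the mitochondrially encoded share of counts was higher in cKO. Sirt1, a nuclear deacetylase of histones and transcription factors, had 39.9 and 58.3 CPM in the cKO libraries, against 68.3 and 114 CPM in the wild-type libraries (log2 fold change -0.89, SE 0.29, edgeR adjusted p = 0.0353), with wide spread in both genotypes. Its fall did not pass without cKO replicate 1 (-0.64) or without wild-type replicate 2 (-0.50), nor with library totals alone (-0.67) or a filter at a mean of 5 CPM (-0.84). The mitochondrial Sirt4 (log2 fold change 0.08) and Sirt5 (-0.36), the chromatin enzyme Sirt6 (0.35) and the nucleolar Sirt7 (0.24) did not pass. With library totals alone, Sirt6 (0.58) and Sirt7 (0.46) passed, higher in cKO. Sirt3 has exonic bases in common with Psmd13 and Ric8a on the opposite strand, 5.73% and 6.998% of its own. Enzymes of other classes share more with a protein-coding gene on the opposite strand. Among them are Kat5 with Rnaseh2c (12.1%), Kmt2e with Srpk2 (9.31%) and Kdm1b with Dek (9.19%). Since strand handling is not given, these counts are uncertain there.

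Set side by side per kilobase of merged exons, the enzymes with the highest wild-type levels were among those that fell. Kat7 led, with 18.7 ± 0.241 CPM per kb in cKO and 64.3 ± 5.91 CPM per kb in wild type (SD, n = 2 each). Kdm5b, Setd3, Kdm3a, Hdac1, Kdm4d and Prmt5 came next in wild type, with means of 49.5, 48.7, 48.4, 39.1, 37.8 and 35.8 CPM per kb. The ranking uses the wild-type values of the comparison itself and is a description. The place of Kat5, with a mean of 28.9 CPM per kb in wild type, is uncertain. Its merged exons span 3509 bases, but the deposited length-scaled values imply 2008 bases, and a shorter length would place it higher. Its part in the acetyltransferase sum is uncertain for the same reason. In cKO the order was led by Hdac6, with 81.7 ± 3.96 CPM per kb in cKO and 32.7 ± 1.15 CPM per kb in wild type (SD, n = 2 each). Kdm7a, Hdac2, Kmt5a and Kdm6b followed in cKO, with means of 51.1, 32.1, 31.6 and 31.4 CPM per kb. Summed over the class, the Hdac level was 182 and 176 CPM per kb in the cKO libraries, against 147 and 151 in the wild-type libraries, and the acetyltransferase level was 132 and 125 CPM per kb in the cKO libraries, against 187 and 168 in the wild-type libraries. The demethylases summed to 283 and 264 CPM per kb in the cKO libraries, against 311 and 298 in the wild-type libraries. The lysine methyltransferases summed to 258 and 251 CPM per kb in the cKO libraries, against 293 and 231 in the wild-type libraries, which overlapped.

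Several of the enzymes that rose lie on the sex chromosomes. Of 4 X-linked enzymes, Kdm5c, Hdac6 and Hdac8 rose and Kdm6a did not pass, and the Y-linked Kdm5d rose, on the TMM scale and not on the Sertoli list scale. Of all 922 X-linked genes tested, 47.3% were higher (436, against 26 on the Sertoli list scale), with a median log2 fold change of 0.62, against 28.4% and a median of -0.05 over the autosomal genes. The median of the 4 X-linked enzymes was 1.11. The Y-linked genes as a whole did not rise: of 32 tested, 5 were higher (15.6%) and 9 lower (28.1%), with a median log2 fold change of -0.12. The Y-linked H3K27 demethylase homologue Uty (log2 fold change 1.09) and the X-linked Phf8, a demethylase of H3K9 and H4K20 (1.08), also rose.

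Enzymes that fall outside the symbol rule were counted by role. Of 22 other methyltransferases, 4 were higher and 5 lower, led among the falls by Ezh2, the H3K27 methyltransferase of Polycomb (log2 fold change -1.71), Nsd2, which dimethylates H3K36 (-1.32), and Prdm9, which marks meiotic recombination sites (-1.26). Prdm16 (1.05), Ehmt1, an H3K9 dimethyltransferase (0.82), and Smyd2 (0.52) rose. Of 9 other demethylases and relatives, 4 were higher and 3 lower, with Phf2, an H3K9 demethylase, falling most (-1.43), then Jmjd1c (-0.88) and Jmjd6 (-0.49), and Hr rising most (1.51). Of 13 other acetyltransferases, 4 were higher and 5 lower. Naa40, which acetylates the N termini of histones H2A and H4, had a log2 fold change of -1.57, Gtf3c4 of -1.55 and Hat1, which acetylates new histone H4, of -0.81. The nuclear receptor coactivators Ncoa2 (1.29) and Ncoa1 (1.005) and the chromodomain protein Cdyl (1.005) rose.

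Across the 8 lists of other enzymes, subunits, cofactors and readers, 32 were higher and 53 lower of 142 (22.5% and 37.3%), with a median log2 fold change of -0.13. Scaled to library totals alone they were 46 higher and 39 lower, with a median of 0.10, and on the Sertoli list scale 116 were lower and the rest did not pass. Of 13 subunits of the COMPASS complexes that carry Kmt2 and Setd1 enzymes, 2 were higher and 7 lower. Psip1, a chromatin tether of Kmt2a, had 133 and 137 CPM in cKO, against 836 and 837 CPM in wild type (log2 fold change -2.63), and the core subunit Ash2l 81.4 and 80.7 CPM in cKO, against 212 and 247 CPM in wild type (-1.50). Both fell, as did Hcfc2 (-2.12), while Wdr82 (0.97) and the X-linked Hcfc1 (1.25) rose. Of 35 subunits of Hdac corepressor complexes, 9 were higher and 12 lower. Sap30, a Sin3 subunit, had 2.20 and 2.74 CPM in cKO, against 36.5 and 35.99 CPM in wild type (log2 fold change -3.88), and the NCoR subunit Gps2 22.4 and 23.6 CPM in cKO, against 117 and 110.2 CPM in wild type (-2.31). In the same NCoR group the X-linked Tbl1x (1.27) rose. Brms1 (-1.44) fell and Arid4a (0.97) rose.

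Of 42 subunits of acetyltransferase complexes, 9 were higher and 16 lower. The SAGA subunits Supt20 (-2.58) and Supt3 (-2.31) and Dr1 (-2.50), a negative cofactor of TBP found in ATAC, fell most. Jade2 (1.41), Msl3, a subunit of the Kat8 complex MSL (1.38), and Morf4l2 (1.34) rose most, and the last pair is X-linked. Of 4 Prmt5 cofactors, 3 fell and the other, Clns1a, did not pass (log2 fold change -0.32). Coprs, which directs Prmt5 to histones, had 5.26 and 6.60 CPM in cKO, against 46.7 and 50.6 CPM in wild type (log2 fold change -3.04), and Wdr77, the obligate partner of Prmt5, 22.6 and 24.4 CPM in cKO, against 34.99 and 39.96 CPM in wild type (-0.67). Riok1 (-0.59) also fell. Of 4 BET proteins, which read acetylated lysines, 2 fell, and Brd3 (log2 fold change -0.11) did not pass. The testis-specific Brdt, which mouse spermatocytes and spermatids use, had 21.4 and 28.98 CPM in cKO, against 463 and 444 CPM in wild type (log2 fold change -4.17), and Brd2 367 and 361 CPM in cKO, against 515 and 479 CPM in wild type (-0.45).

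**Figure D5:**
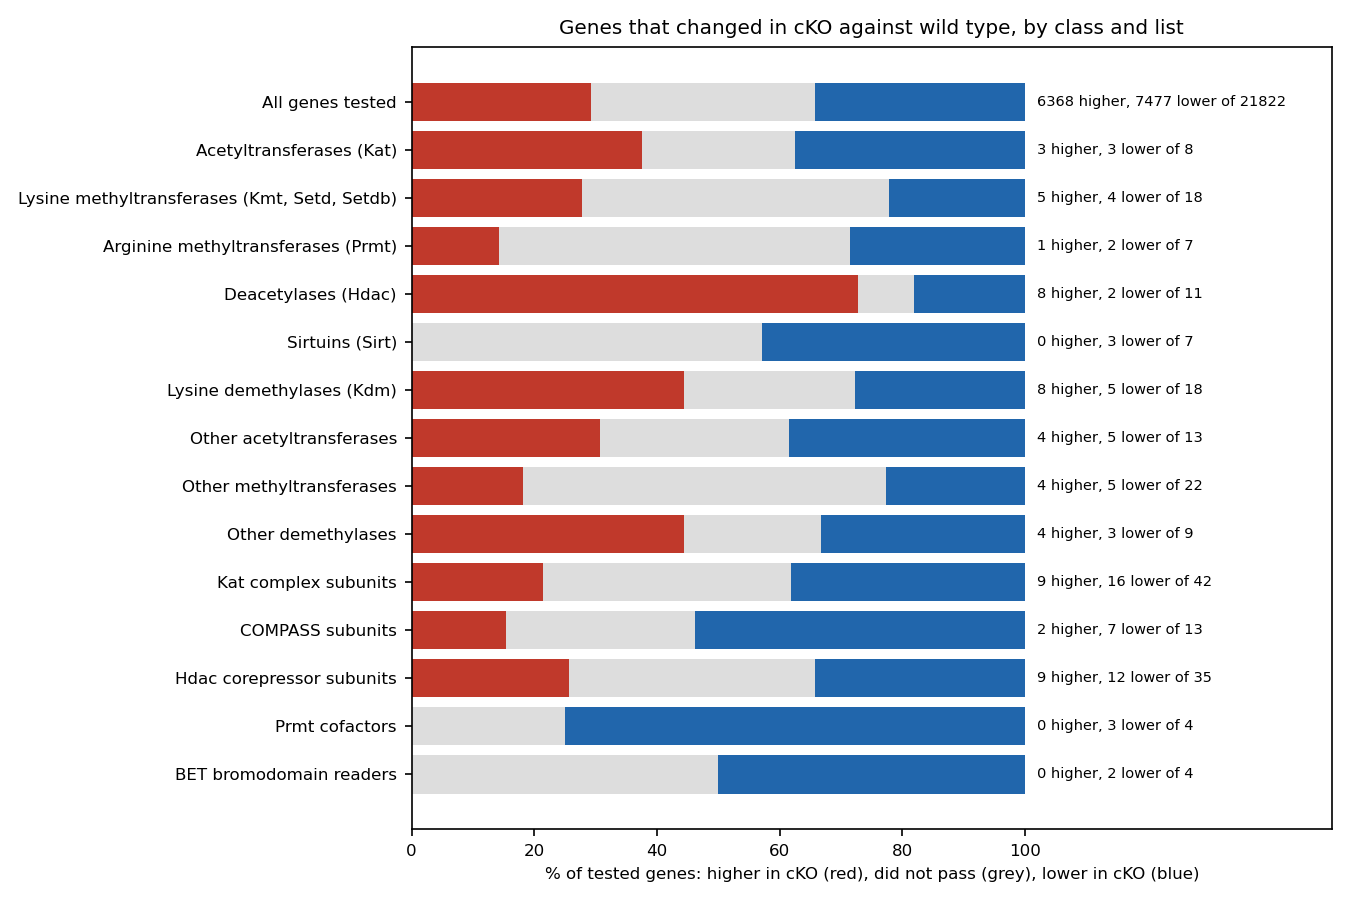
Share of tested genes (x axis, %) that were higher in cKO (red, left), did not pass (grey) or were lower in cKO (blue, right), for all genes, the 6 enzyme classes and 8 lists of related genes (y axis), with counts at the right. The Hdac class has the longest red bar, 8 of 11, and the COMPASS, Prmt cofactor and BET lists have more blue than red; all calls are those of the TMM scale, and on the Sertoli list scale no enzyme was called higher.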

How the data were processed

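Paired-end RNA libraries from whole testis, 2 from Sympk cKO and 2 from wild-type mice, were analysed from the deposited table. Per the submitters' processing notes, HISAT2 was the aligner and GRCm38 the build. How reads were counted, with which strand setting and which annotation, is not given in the sources used here. Per the file headers, the authors deposited whole-number read counts per gene for 53465 genes, with no normalization. The authors also deposited FPKM values, which divide these counts by library total and gene length. For 69 of 74 enzyme rows with a usable value that length was, within 1%, the sum of all distinct exons, with overlaps counted repeatedly, so FPKM was not used. Levels between genes were set instead in CPM per kilobase of merged exons of GENCODE M21. The plan had named FPKM.

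The enzymes were taken by symbol, and the members, gene lists and marker lists were chosen with earlier results of these data known. Counts were filtered with filterByExpr, scaled with TMM and tested with edgeR's quasi-likelihood test (edgeR 4.0.16, R 4.3.3), with genotype as its only term, as a two-sided test adjusted by Benjamini-Hochberg over 21822 genes and a threshold of 0.05. Library totals set the precision: 1 CPM stood for 35.6 to 42.8 counts. The replicates of a genotype differed by far more than counting noise, with a chi-square per gene of 22.1 in cKO and 46.7 in wild type, so all 4 were kept. Alternatives were DESeq2 1.42.0, limma-voom (limma 3.58.1), RLE factors, library totals alone, library sizes set by 24 Sertoli markers, no filter, a mean of at least 5 CPM, a replicate term, and each library left out in turn, when the lone library of a genotype was assumed to vary like the others. The fit was tested on simulated data, with 200 genes changed in each run, far fewer than changed here. With tagwise and trended dispersions it called 32.4% and 38.9% of the 2-fold changes and 80.8% and 88.8% of the 4-fold changes. An enzyme that did not pass is thus not shown to be unchanged. Ratios between relatives used an exact permutation test (Python 3.11.15, scipy 1.17.1).

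Values in every library are given for up to 4 enzymes per class and direction with the largest change and a mean of at least 1 CPM. They are also given for enzymes whose call changed with a library left out and for close relatives. Up to 3 genes per direction were named in each list, and some are not reported here. A few enzymes that did not pass were given with their values after these were seen. Coordinates are those of the table, in GRCm38, and 73 of 75 matched GENCODE M21. Those that did not match were Kat5 and Hdac3.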

Additional observations from a re-analysis of the deposited data

How the results depend on the processing

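Prmt8 and 2 pseudogenes had too few counts to be tested. Of the 25 enzymes that rose, 17 passed whichever library was left out and in every alternative but the Sertoli list scaling, and of the 19 that fell, 15 did. Scaling to library totals alone put the median of all genes at 0.20, against -0.02 with TMM, and scaling to the Sertoli list moved it to -1.16. Apart from the Sertoli list scaling, none of these 44 enzymes changed sign in the alternatives tried, while 13 of the 25 that had not passed did so in at least 1. No cause of these differences was tested.

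On the Sertoli list scale 483 genes were higher and 13190 lower. Of the 72 tested rows 0 were higher and 49 lower, and of the enzymes 0 and 47. By class the higher and lower calls there were 0 and 4 for Hdac, 0 and 6 for Kat, 0 and 11 for Kdm, 0 and 13 for lysine methyltransferases and 0 and 6 for Prmt, and 7 sirtuins were lower. Of the enzymes that rose with TMM, Hdac4, Kat6a, Kdm3b and Kmt5a were called lower there. The sign of 28 enzymes turned on that scale, 15 of them enzymes that rose with TMM. Their log2 fold changes were -1.09 for Hdac2, -0.67 for Hdac4, -0.10 for Hdac5, -0.25 for Hdac8, -1.05 for Kat2a, -0.66 for Kat6a and -0.35 for Kat6b. They were -0.34 for Kdm1b, -0.60 for Kdm3b, -0.11 for Kdm4a, -0.21 for Kdm4b, -1.005 for Kdm4c, -0.77 for Kdm6a and -0.0012 for Kdm7a. They were -0.28 for Kmt2a, -0.14 for Kmt2c, -0.23 for Kmt2d, -1.12 for Kmt2e, -0.57 for Kmt5a, -0.79 for Kmt5b, -1.03 for Setd1b and -0.45 for Setd5. They were -0.28 for Prmt2, -0.84 for Prmt3, -1.12 for Prmt6, -1.06 for Sirt4, -0.79 for Sirt6 and -0.91 for Sirt7.

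With library totals alone 1 Hdac enzyme was lower, and 2 Prmt enzymes and 2 sirtuins were higher. With the filter at a mean of 5 CPM, 4620 were lower. With 1 library left out, all genes higher ran from 4630 to 5798 and lower from 6320 to 7089, enzymes higher from 18 to 28 and lower from 15 to 21, and rows higher from 19 to 29 and lower from 17 to 23. In the same fits Hdac enzymes lower numbered 1 to 2, Kat enzymes higher 1 to 4, and lysine methyltransferases higher 3 to 8.

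The replicate numbers in the titles do not pair the libraries by any label, and the deviations of same-numbered libraries correlated at -0.07 over genes. With a replicate block, 24 enzymes were higher and 18 lower, and over all genes 5632 and 6937. The Hdac enzymes then had 6 higher, since Hdac4 and Hdac8 did not pass, and Setd4 did not pass either, while Kmt2d did.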
